A study of Mus musculus with 6 samples.

Results

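The 39 HOX genes of the mouse were examined in the adipocyte fraction of epididymal fat. A gene was taken as a member when its Ensembl identifier maps to a protein-coding symbol made of Hox, a cluster letter from a to d and a number, and all 39 had a row among the 35122 genes of the count table. They lie in 4 clusters, written here with coordinates of the GRCm38 build: 11 genes in HOXA (chr6:52155590-52260880), 10 in HOXB (chr11:96194316-96368256), 9 in HOXC (chr15:102921103-103036852) and 9 in HOXD (chr2:74668310-74765142). RNA came from the floating adipocyte fraction left by collagenase digestion of the fat pads of male C57BL/6 mice, aged 10-11 months by their labels, with 1 library per mouse. The 3 control mice carried floxed alleles of Spi1, the gene of the transcription factor PU.1, without Cre (PU.1 fl/fl), and the 3 aPU.1KO mice carried the same floxed alleles with Cre driven by the promoter and enhancer of the adiponectin gene Adipoq (AdipoqCre PU.1 fl/fl). Cre is thus limited to cells that use Adipoq, other cells of the fraction keep Spi1, and counts per gene include reads from exons of Spi1 outside the floxed one.

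HOX genes encode homeodomain transcription factors that give cells their position along the head-to-tail axis of the embryo. Within a cluster the genes stand in the order of their numbers, so that low numbers mark anterior and high numbers posterior positions, and genes of equal number in different clusters (paralogues) arose by duplication of the whole cluster. Adult fat depots keep different sets of HOX transcripts, which are therefore read as a record of where the fat cells come from.

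Spi1 itself stood at 24.3, 6.35 and 26.7 CPM (counts per 1000000 after TMM scaling) in the control mice and at 3.20, 1.22 and 4.17 CPM in the aPU.1KO mice, all of the latter below all of the former, although control mouse 2 was far below the other control mice. The log2 fold change was -2.75 (SE 0.64), with an adjusted p of 0.0788 in edgeR's quasi-likelihood test and of 7.65e-05 in DESeq2. Total counts ran from 20550252 to 69283842 per library, the deepest being control mouse 1. The tissue label was checked on markers. The 12 adipocyte markers, among them Fabp4 and Adipoq, summed to between 27564 and 40156 CPM in each library, against 269 to 1627 CPM for 14 macrophage markers. Of 16 markers of the epididymis epithelium, the neighbouring organ, 14 stayed at or below 3 counts in every library. Progenitor and fibroblast markers summed to 8126 to 9254 CPM, mural markers to 1002 to 1464 CPM and endothelial markers to 450 to 1089 CPM. The fraction thus did not hold RNA of adipocytes alone.

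Levels between genes were compared only per length, as RPKM, the CPM divided by the length of a gene's merged exons in kilobases, and a gene was called expressed at a group mean of at least 1 RPKM. By this measure 13 of the 39 HOX genes were expressed in the control mice and 14 in the aPU.1KO mice, which add Hoxa4. At the other end, 7 genes (Hoxb13, Hoxc11, Hoxc12, Hoxc13, Hoxd11, Hoxd12 and Hoxd13) had 0 counts in all 6 libraries, which allows a level of up to 0.0413 CPM in the deepest library and 0.152 CPM in the least deep. Hoxd10 had at most 2 counts in any library. The remaining 18 genes in control mice lay between these limits, and 26 of the 39 had more than 3 counts in every library. These limits cover counting error only.

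**Figure D1:**
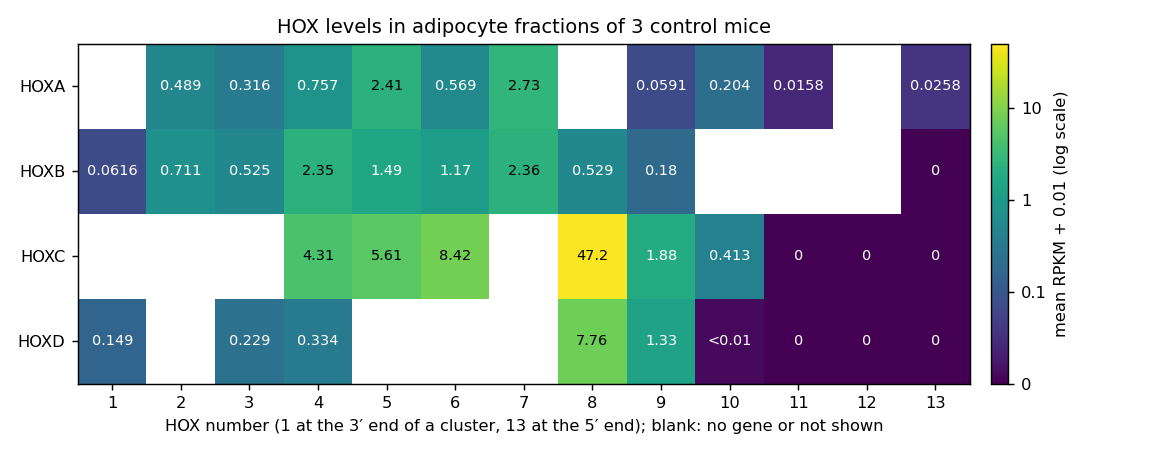
Mean level of each HOX gene in the adipocyte fraction of the 3 control mice, in RPKM, with the 4 clusters as rows and the gene numbers as columns. Colour gives the level on a log scale and blank fields mark numbers a cluster lacks or a gene not shown. The expressed genes fill numbers 4 to 9, Hoxc8 stands out at 47.2 RPKM, and numbers 11 to 13 are at or near 0.

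The adipocyte fraction used the middle of the clusters. It is a bulk fraction, so the HOX levels were not assigned to a cell type. Genes with numbers 4 to 8 held 92.3% of the summed RPKM of all HOX genes in control mice, and 11 of these 15 genes were expressed. Number 9 held 3.62%, with 2 of 4 genes expressed (Hoxc9 and Hoxd9). Numbers 1 to 3 held 3.38%, number 10 held 0.65% and numbers 11 to 13 held 0.044%, without an expressed gene among them. The anterior limit depends on the length used: with median transcript lengths Hoxb3 (1.75 RPKM), Hoxa3 (1.05 RPKM) and Hoxb2 (1.04 RPKM) also passed 1 RPKM, while numbers 1 to 3 held 3.79% of the summed level. In the aPU.1KO mice numbers 4 to 8 held 92.7% and number 9 held 3.87%, so the span of positions in use was alike in both genotypes. Genes with numbers 11 to 13, which pattern the limbs, the external genitalia and the tail end of the embryo, together reached a mean of 0.0416 RPKM in control mice.

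Among clusters, HOXC dominated. It held 71.2% of the summed HOX level in control mice and 68.5% in aPU.1KO mice, while HOXD held 10.3% and 9.69%, HOXB 9.84% and 9.62%, and HOXA 8.73% and 12.2%. The HOXA genes summed to 11.2, 22.4 and 9.81 RPKM in the aPU.1KO mice, with mouse 2 far above the others. All 5 HOXC genes from Hoxc4 to Hoxc9 were expressed, against 4 genes in HOXB (Hoxb4, Hoxb5, Hoxb6 and Hoxb7), 2 in HOXA (Hoxa5 and Hoxa7) and 2 in HOXD (Hoxd8 and Hoxd9).

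Hoxc8, which specifies thoracic and lumbar levels of the trunk, was the most abundant HOX transcript by a wide margin. It stood at 46.8, 48.7 and 46.1 RPKM in the control mice (47.2 ± 1.34, SD, n = 3) from between 3149 and 9616 counts. This single gene made up 49.5% of the summed HOX level, and its level exceeded that of 92.0% of the protein-coding genes that reached 1 RPKM. Its neighbours in the cluster were far lower. Hoxc6, which also acts at thoracic level, had 8.36, 8.71 and 8.20 RPKM, so that Hoxc8 was 5.60-fold higher by the ratio of control means (2.89-fold with median transcript lengths). Hoxc9 had 1.91, 2.05 and 1.68 RPKM and Hoxc10 had 0.570, 0.275 and 0.395 RPKM in the control mice. From Hoxc8 to Hoxc9 the level thus dropped 25.1-fold over one step along the chromosome (23.1 to 27.4 in single libraries of either genotype). To Hoxc10 the drop was 114-fold, but 82.1 to 262 in single libraries.

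HOXD also dropped from number 8 to number 9, but less steeply and at a lower level. Hoxd8 stood at 7.67, 8.60 and 6.995 RPKM in control mice (7.76 ± 0.805, n = 3), and Hoxd9 at 1.32, 1.27 and 1.41 RPKM (1.33 ± 0.0718). The ratio of control means was 5.82 (9.09 with median transcript lengths), and 3.77 to 6.77 in single libraries of either genotype. On the anterior side of Hoxd8, Hoxd4 had 0.360, 0.386 and 0.256 RPKM, although 49.1% of the 31-base runs in its exons also occur in another annotated gene, mostly a read-through transcript, and the same holds for 61.1% of those of Hoxd3, so both levels are uncertain. In HOXB, Hoxb7 had 2.32, 2.61 and 2.16 RPKM and Hoxb4 had 2.25, 2.49 and 2.30 RPKM. Hoxb5 was at 1.41, 1.85 and 1.20 RPKM.

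Ordered by control mean, the 13 expressed genes were Hoxc8, Hoxc6, Hoxd8, Hoxc5, Hoxc4, Hoxa7, Hoxa5, Hoxb7, Hoxb4, Hoxc9, Hoxb5, Hoxd9 and Hoxb6, from 47.2 down to 1.17 RPKM. Of the 12 neighbouring pairs in this order, the first gene was higher in all 3 control mice in 8, and the ranges of the genes did not overlap in 5 (Hoxc8 over Hoxc6, Hoxd8 over Hoxc5, Hoxc5 over Hoxc4, Hoxc4 over Hoxa7 and Hoxb4 over Hoxc9). Hoxc6 was above Hoxd8 in every control mouse although their ranges overlapped. The order depends on the length used, a check added after the values were seen: with median transcript lengths in place of merged exons 4 pairs changed places (Hoxc4 and Hoxa7, Hoxa5 and Hoxb7, Hoxb4 and Hoxc9, Hoxd9 and Hoxb6), while Hoxc8, Hoxc6, Hoxd8 and Hoxc5 came first in this order with merged exons, median and longest transcripts.

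Paralogues of group 8 differed widely in level. Hoxc8 was 89.2-fold and Hoxd8 14.7-fold higher (53.5-fold and 9.91-fold with median transcript lengths) than Hoxb8, which had 0.486, 0.498 and 0.602 RPKM in the control mice. The 3 genes carry closely related homeoboxes, the 180-base stretch that encodes the DNA-binding homeodomain, and these are shown because the paralogues with such different levels have to be told apart by their reads. Each lies in the second exon of its gene, at chr15:102992571-102992750 for Hoxc8, chr2:74706525-74706704 for Hoxd8 and chr11:96284174-96284353 for Hoxb8, all on the plus strand of GRCm38 (GENCODE M21 transcripts). Capitals mark the bases that differ from Hoxc8.
Hoxc8: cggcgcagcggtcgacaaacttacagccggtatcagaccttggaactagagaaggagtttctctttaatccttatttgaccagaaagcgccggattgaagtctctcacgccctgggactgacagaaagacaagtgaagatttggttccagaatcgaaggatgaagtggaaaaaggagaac
Hoxd8: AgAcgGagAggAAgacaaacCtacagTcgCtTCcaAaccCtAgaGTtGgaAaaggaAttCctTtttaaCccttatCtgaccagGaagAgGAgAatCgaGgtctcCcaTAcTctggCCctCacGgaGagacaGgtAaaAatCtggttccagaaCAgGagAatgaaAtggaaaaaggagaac
Hoxb8: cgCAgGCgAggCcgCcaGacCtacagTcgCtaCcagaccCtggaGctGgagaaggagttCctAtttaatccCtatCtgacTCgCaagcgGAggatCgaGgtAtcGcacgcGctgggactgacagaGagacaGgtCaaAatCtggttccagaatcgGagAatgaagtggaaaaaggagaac
Hoxd8 differed from Hoxc8 at 48 bases (73.3% identical) and Hoxb8 at 36 (80.0% identical). The longest stretch without a difference was 15 bases between Hoxc8 and Hoxd8 and 21 bases between Hoxc8 and Hoxb8. Over all 39 genes the median identity of homeoboxes was 80.6% between paralogues of equal number (42 pairs) and 61.7% between genes of different number in the same cluster (172 pairs). Over whole merged exons, under 0.5% of the 31-base runs of each of the 3 group 8 genes recurred in another gene, so their levels are little exposed to reads assigned to the wrong paralogue. Hoxd3 and Hoxd4 also share runs with each other (8.56% and 12.1% of their runs), and a stretch of Hoxc10 (7.34% of its runs) is also annotated as an exon of Hoxc5.

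The aPU.1KO mice were then compared with control. The same 13 genes were expressed in both genotypes and Hoxc8 remained first, with 48.2% of the summed level. Most HOX genes were somewhat higher in the aPU.1KO mice, but none passed the test. Of the 39 genes 27 had enough counts to be tested, and 12 were not tested: the 7 at 0, Hoxd10, Hoxa11, Hoxa13, Hoxb1 and Hoxd1. edgeR called 0 of the 27 at an adjusted p under 0.05, where 0.237% of all 13925 genes tested were called (0.0575% as higher and 0.18% as lower), and the lowest adjusted p of a HOX gene was 0.0892 (Hoxc4). A nominal (unadjusted) p under 0.05 was reached by 7 HOX genes, all higher in aPU.1KO (25.9% of the 27), beside 11.9% of all genes tested that were higher and 13.7% that were lower. This count became 2 without scaling factors, and 2 when either control mouse 1 or control mouse 3 was left out. It was 4 when aPU.1KO mouse 2 or 3 was left out. limma-voom also called 0 after adjustment, with 8 of 27 HOX genes at a nominal p under 0.05, all higher, beside 12.3% of all genes that were higher in that test. DESeq2 called 2 of 29, Hoxa7 and Hoxc4, where it called 11.0% of all genes (3.51% as higher and 7.48% as lower).

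A log2 fold change above 0 was found for 23 of the 27 genes (85.2%) against 52.0% of all genes, and their median was 0.25 against 0.01. For 10 of them every aPU.1KO mouse was above every control mouse (Hoxa4, Hoxa7, Hoxb3, Hoxb4, Hoxb5, Hoxc4, Hoxc5, Hoxc8, Hoxc9 and Hoxd9), which is 37.0% of those tested beside 16.7% of all genes, and for none was every aPU.1KO mouse below, beside 15.5% of all genes. Without scaling factors, an alternative added after the values were seen, the split was 7 above and 1 below (Hoxc6), beside 7.61% of all genes above and 22.6% below on that scale. Genes of a cluster are neighbours and all of them share the same 6 mice, so these are not counts of independent genes, and no test of the set was made. Without scaling factors the log2 fold changes of all genes shifted by a median of -0.12, and the median of the HOX genes relative to that of all genes was 0.23 in place of 0.24.

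**Figure D2:**
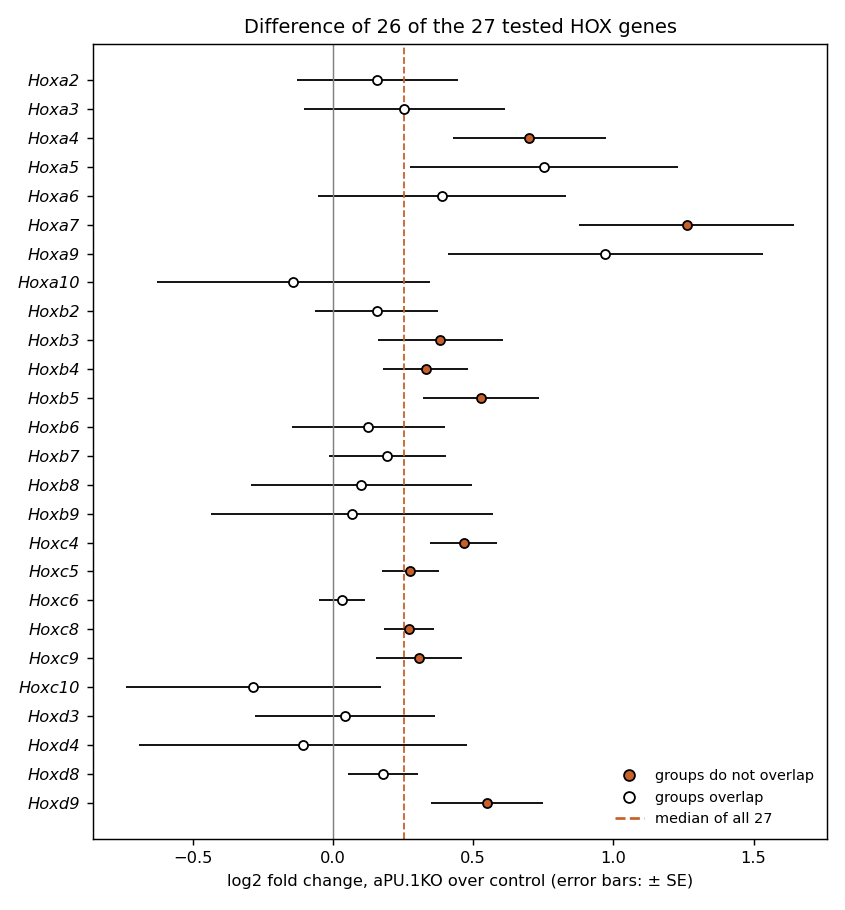
Difference between aPU.1KO and control mice for 26 of the 27 tested HOX genes, as log2 fold change (horizontal axis) with the standard error of edgeR as bars, ordered by cluster and number. Filled points mark the 10 genes whose groups do not overlap, all to the right of 0, and the dashed line is the median of all 27, 0.25.

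In HOXC the log2 fold changes ran from -0.28 (Hoxc10) to 0.47 (Hoxc4). Hoxc4, the most anterior gene of the cluster, stood at 4.18, 4.86 and 3.89 RPKM in control and at 5.82, 5.97 and 6.07 RPKM in aPU.1KO mice. Its groups were clearly apart, with a log2 fold change of 0.47 (SE 0.12) and an adjusted p of 0.0892 in edgeR and 0.0253 in DESeq2. Without control mouse 2 edgeR's adjusted p for Hoxc4 was 0.0432, with 1 HOX gene called, and over all alternatives it ran from 0.0253 to 0.385. Hoxc8 rested on the most counts and was higher in every aPU.1KO mouse, at 62.8, 55.8 and 52.3 RPKM, with a log2 fold change of 0.27 (SE 0.09, adjusted p 0.125). Hoxc5 went from 5.28, 6.25 and 5.30 to 6.91, 6.56 and 6.885 RPKM (log2 fold change 0.28, SE 0.10, adjusted p 0.156). Hoxc9 was at 2.34, 2.42 and 2.22 RPKM in aPU.1KO mice, again above all controls (log2 fold change 0.31, SE 0.15, adjusted p 0.26). Hoxc6, alone among the expressed genes of the cluster, overlapped the controls. It stood at 8.36, 8.88 and 8.60 RPKM in aPU.1KO mice, and its log2 fold change of 0.03 had an SE of 0.08.

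In HOXD the higher level of Hoxd8, at 8.0, 9.97 and 8.35 RPKM in aPU.1KO mice, overlapped the controls (log2 fold change 0.18, SE 0.12, adjusted p 0.404). Hoxd9, its posterior neighbour, was at 1.57, 2.05 and 2.22 RPKM and above every control mouse (log2 fold change 0.55, SE 0.20, adjusted p 0.151). Hoxd4 had 0.379, 0.0767 and 0.482 RPKM, so that one aPU.1KO mouse lay far below all others. In HOXB the groups did not overlap for Hoxb3, Hoxb4 and Hoxb5, which are neighbours on the chromosome. Hoxb5 had 1.99, 2.04 and 2.38 RPKM in aPU.1KO mice (log2 fold change 0.53, SE 0.21, adjusted p 0.173), and Hoxb4 had 2.52, 3.17 and 3.16 RPKM (0.33, SE 0.15, adjusted p 0.227). Hoxb3 had 0.729, 0.702 and 0.635 RPKM against 0.577, 0.412 and 0.588 RPKM in control (0.38, SE 0.22, adjusted p 0.326). Hoxb7, at 2.27, 3.34 and 2.49 RPKM, overlapped the controls.

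**Figure D3:**
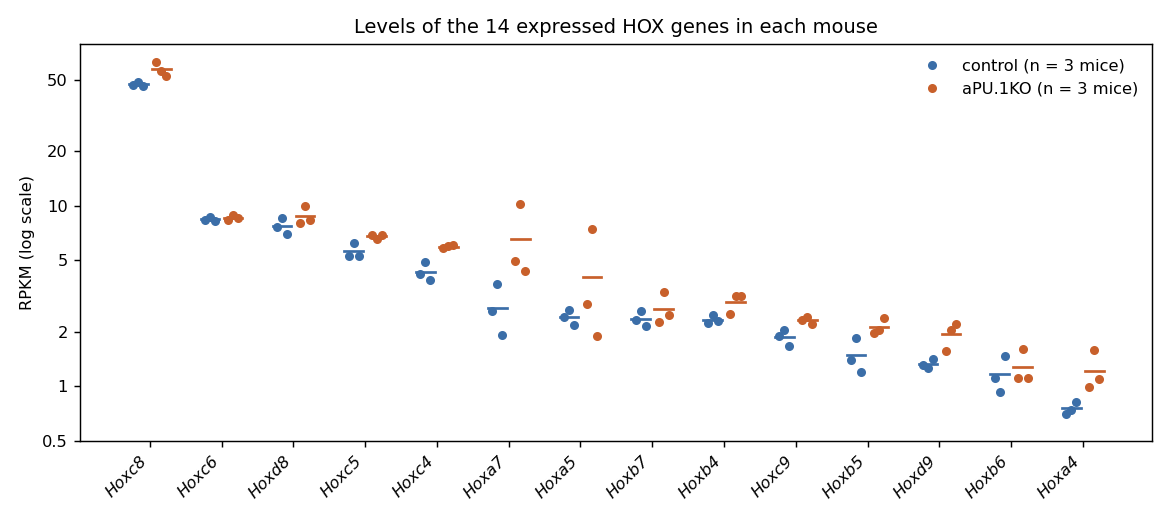
Level of the 14 HOX genes expressed in either genotype, in RPKM on a log scale, with 1 point per mouse and a line at the mean of each group (control in blue, aPU.1KO in orange, 3 mice each). Hoxc8 lies above every other gene in all 6 mice, and the widest spread between aPU.1KO mice is in Hoxa7 and Hoxa5.

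With all mice included, the 4 highest log2 fold changes belonged to HOXA genes, and that of Hoxa9 (0.97, SE 0.56) came with groups that overlapped. Hoxa7, another gene of thoracic level, stood at 2.61, 3.67 and 1.92 RPKM in control mice and at 4.95, 10.3 and 4.38 RPKM in aPU.1KO mice. All aPU.1KO mice were above all controls, with a log2 fold change of 1.26 (SE 0.38) and an adjusted p of 0.112 in edgeR and 0.0152 in DESeq2 (0.0152 to 0.389 over all alternatives). Hoxa4 had 0.708, 0.741 and 0.821 RPKM in control and 0.988, 1.59 and 1.10 RPKM in aPU.1KO mice, a log2 fold change of 0.70 (SE 0.27, adjusted p 0.171). Without aPU.1KO mouse 2 the log2 fold change of Hoxa4 was 0.47. Hoxa5, a gene of cervical and upper thoracic level, had 2.41, 2.64 and 2.18 RPKM in control but 2.87, 7.39 and 1.89 RPKM in aPU.1KO mice. Its log2 fold change of 0.75 (SE 0.48, adjusted p 0.361) thus came from a single mouse, and without that mouse it was -0.02.

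That animal, aPU.1KO mouse 2, stood apart in several HOX genes. In 5 of the 27 tested (Hoxa3, Hoxa5, Hoxa7, Hoxb8 and Hoxb9, 18.5%) it was more than 1.5-fold above the highest of the other 5 libraries, beside 2.41% of all genes tested, a count made after the values were seen. Its level was 2.58-fold above the next library for Hoxa5 and 2.07-fold for Hoxa7. For Hoxa10, a more posterior gene of the cluster, it had 5 counts and the lowest level of all libraries, as it did for Hoxd4, also with 5 counts. Without this mouse the number of HOX genes at a nominal p under 0.05 was 4, and the log2 fold change of Hoxa7 was 0.77, its lowest value when any mouse was left out. Marker sums also differed in this mouse. The 12 endothelial markers summed to 990 CPM, within the 768 to 1089 CPM of the controls, against 450 and 613 CPM in the other aPU.1KO mice. It also had the highest adipocyte marker sum of all libraries (40156 CPM), the lowest macrophage marker sum (269 CPM) and the lowest Spi1 (1.22 CPM). The part of these differences in the HOX values of this mouse was not tested.

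**Figure D4:**
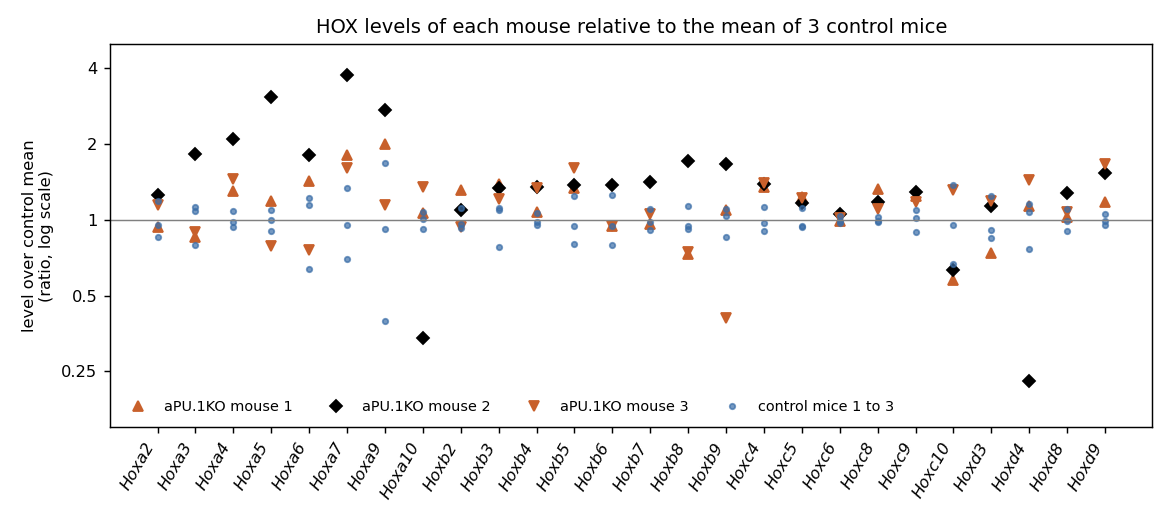
Level of 26 tested HOX genes in each mouse as a ratio to the mean of the 3 control mice (log scale), ordered by cluster and number. Black diamonds are aPU.1KO mouse 2, which lies above the other mice from Hoxa3 to Hoxa9 and below them at Hoxa10 and Hoxd4.

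Windows around the transcription start were searched for motifs, since PU.1 is a DNA-binding factor of the ETS family. The RefSeq promoter table (GRCm38.p6, 250 bases before to 50 after the start) holds 24 windows for 22 HOX genes, of which 3 are shown: the genes that DESeq2 called, Hoxc4 and Hoxa7, and Hoxa5, high in the same single mouse as Hoxa7. They lie for Hoxc4 at chr15:103034145-103034444 on the plus strand, for Hoxa5 at chr6:52204538-52204837 and for Hoxa7 at chr6:52218524-52218823, both on the minus strand. Capitals mark GAGGAAGT, a high-affinity ETS site of the PU.1 type, and CCAAT, each on either strand.
Hoxc4: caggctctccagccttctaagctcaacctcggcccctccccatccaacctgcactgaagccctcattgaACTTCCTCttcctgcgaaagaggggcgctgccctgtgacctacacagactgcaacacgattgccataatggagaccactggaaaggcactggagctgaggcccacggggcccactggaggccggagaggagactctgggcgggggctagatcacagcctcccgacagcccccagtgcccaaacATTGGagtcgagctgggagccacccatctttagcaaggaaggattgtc
Hoxa5: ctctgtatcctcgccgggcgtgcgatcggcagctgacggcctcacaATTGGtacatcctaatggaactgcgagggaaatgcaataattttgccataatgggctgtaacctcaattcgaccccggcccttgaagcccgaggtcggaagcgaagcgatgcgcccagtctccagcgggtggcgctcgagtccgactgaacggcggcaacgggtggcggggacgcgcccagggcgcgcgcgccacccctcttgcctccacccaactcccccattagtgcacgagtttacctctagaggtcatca
Hoxa7: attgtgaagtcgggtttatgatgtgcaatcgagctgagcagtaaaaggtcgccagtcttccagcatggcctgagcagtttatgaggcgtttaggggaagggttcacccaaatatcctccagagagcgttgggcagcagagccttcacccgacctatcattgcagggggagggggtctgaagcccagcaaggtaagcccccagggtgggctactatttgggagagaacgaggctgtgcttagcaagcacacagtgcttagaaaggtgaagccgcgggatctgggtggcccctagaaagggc
GAGGAAGT occurred in 1 of the 24 HOX windows, that of Hoxc4 (4.17%), and in 3.20% of all 32851 windows of the table. Its shorter core GAGGAA was found in 4 HOX windows (16.7%) against 28.3% of all windows. The window of Hoxa7 held neither motif and that of Hoxa5 held CCAAT once. In all, CCAAT was found in 15 HOX windows (62.5%) against 37.4% of all windows. TGATTNAT, a joint site of HOX proteins and their PBX partners, occurred in 2, those of Hoxa2 and Hoxd11 (8.33%), against 3.22% of all windows. TATAAA was found in 4 (16.7%) against 13.6%. These matches describe letters and not binding.

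Summed levels of marker genes also differed between the groups. All HOX genes summed to 253, 271 and 245 CPM in control and to 320, 340 and 294 CPM in aPU.1KO mice, without overlap. The adipocyte markers, all 12 of which were tested, showed the same order: their sum was 27564 to 30016 CPM in control and 33514 to 40156 CPM in aPU.1KO mice, with 10 of 12 higher and 1 lower at a nominal p under 0.05, beside 11.9% and 13.7% of all genes tested. Per 1000 CPM of these markers the HOX genes summed to 9.18, 9.36 and 8.17 CPM in control and to 8.53, 8.47 and 8.78 CPM in aPU.1KO mice, so on this scale the groups overlapped. Of the 10 genes whose groups did not overlap, Hoxa7 alone stayed above the controls on that scale (1.31% of all genes did). Hoxc6, which is not one of these 10, came to lie below the controls, as 48.8% of all genes did. This scale was chosen after the values were seen. Its markers may themselves respond to PU.1, which was not tested.

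Markers of several other cell types were lower in the aPU.1KO mice, to be read against the 13.7% of all genes that were lower at a nominal p under 0.05. Macrophage markers summed to 519 to 1627 CPM in control and 269 to 356.5 CPM in aPU.1KO mice (12 of 14 lower at a nominal p under 0.05, 1 after adjustment in edgeR, none at or below 3 counts in all libraries), and the lowest control value belonged to mouse 2. Of 14 progenitor and fibroblast markers 9 were lower and none higher, although their sum overlapped (8183 to 9254 CPM against 8126 to 8769 CPM), and 6 of 10 mural markers were lower. Endothelial markers, with 2 of 12 lower, were near the share of all genes. Hepatocyte markers, present at 47.4 to 71.7 CPM in control and 19.4 to 26 CPM in aPU.1KO mice, were lower in 9 of 9 (3 after adjustment). Of 5 lymphocyte markers tested 0 reached a nominal p under 0.05, with sums of 4.99 to 8.33 CPM and 2.90 to 4.74 CPM. Mesothelial markers, which cover the surface of this depot, summed to 6.27 to 26.2 CPM and 9.24 to 11.6 CPM, with 0 of 9 at a nominal p under 0.05. In a bulk fraction, fewer cells of a type and less RNA per cell cannot be told apart, and the part of these shifts in the HOX values was not tested.

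**Figure D5:**
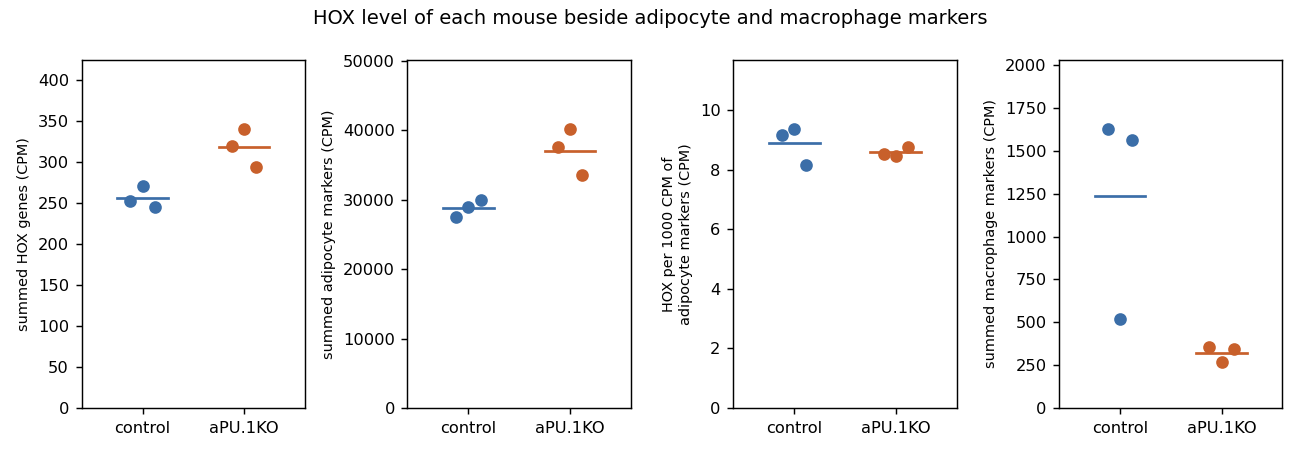
Summed CPM of all HOX genes, of 12 adipocyte markers and of 14 macrophage markers, and the HOX sum per 1000 CPM of adipocyte markers, with 1 point per mouse and a line at the group mean (3 mice each). HOX and adipocyte sums are both higher in every aPU.1KO mouse, and the groups overlap once the HOX sum is taken per 1000 CPM of adipocyte markers.

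HOX proteins bind DNA together with cofactors of the TALE class. Pbx2, one of the most abundant, stood at 7.0, 7.11 and 6.68 RPKM in control and at 7.37, 10.1 and 7.43 RPKM in aPU.1KO mice. Of the 7 TALE genes tested, 1 was higher at a nominal p under 0.05 and none lower (median log2 fold change 0.04), near the share of all genes that were higher.

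HOX clusters are kept silent by Polycomb complexes and kept active by trithorax complexes. Of 12 tested genes of Polycomb repressive complex 2, Rbbp4 and Phf1 were higher at a nominal p under 0.05 and none lower, and of 19 tested genes of complex 1, Ring1, Yaf2 and Cbx7 were higher and none lower, beside 11.9% of all genes higher and 13.7% lower, so the counts of higher genes were close to that background. Rbbp4, a histone-binding subunit, stood at 12.9, 13.1 and 12.8 RPKM in control and 16.5, 19.5 and 14.8 RPKM in aPU.1KO mice (log2 fold change 0.39, SE 0.11, adjusted p 0.101). Ring1, a ubiquitin ligase of complex 1, stood at 5.33, 5.22 and 5.71 RPKM and 7.13, 7.37 and 6.40 RPKM (0.36, SE 0.10, adjusted p 0.0929). The 2 groups of mice were apart for either gene. Neither passed the test in edgeR, while DESeq2 gave adjusted p of 0.0382 for Rbbp4 and 0.0443 for Ring1. Means in control and aPU.1KO mice (SD, n = 3) were 4.68 ± 0.138 and 6.01 ± 0.588 RPKM for Phf1, 16.4 ± 1.69 and 20.7 ± 1.02 RPKM for Yaf2, and 2.85 ± 0.234 and 3.84 ± 0.613 RPKM for Cbx7. The most abundant other members, Rbbp7 (27 ± 1.64 and 30.7 ± 2.35 RPKM) and Bmi1 (15.4 ± 0.835 and 16.1 ± 1.21 RPKM), differed less. Of 16 trithorax genes Ash2l was higher and the histone methyltransferase gene Kmt2d lower, at 3.42, 3.57 and 3.16 RPKM against 2.72, 2.91 and 2.76 RPKM (-0.28, SE 0.08, adjusted p 0.0977 in edgeR and 0.0374 in DESeq2). Ash2l, a core subunit of the same complexes, had means of 2.78 ± 0.0772 and 3.39 ± 0.228 RPKM. The medians of the 3 lists were 0.04, 0.16 and 0.00.

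Retinoic acid and CDX factors switch HOX genes on in the embryo. Cdx1, Cdx2 and Cdx4 stayed at or below 3 counts in every library. Of 14 genes tested in this list 2 were higher and 4 lower at a nominal p under 0.05, beside 11.9% and 13.7% of all genes, and those with the lowest p were enzymes that make retinoic acid. Aldh1a3 stood at 1.88, 1.33 and 1.49 RPKM in control and 0.738, 0.754 and 0.882 RPKM in aPU.1KO mice (log2 fold change -0.99, SE 0.19, adjusted p 0.0749 in edgeR and 0.000575 in DESeq2). Aldh1a2 stood at 1.95, 1.66 and 1.61 RPKM and 0.673, 0.819 and 1.15 RPKM (-0.99, SE 0.25, adjusted p 0.0893 and 0.0111). Every aPU.1KO mouse was below every control for both enzymes, whereas the main enzyme of the fraction, Aldh1a1, at 52.1, 63.7 and 46.8 RPKM against 67.2, 54.1 and 64.0 RPKM, overlapped. Dhrs3, which turns retinal back to retinol, had means of 72.3 ± 6.24 and 70.4 ± 8.6 RPKM, and the receptor gene Rxrg, higher in every aPU.1KO mouse, 6.52 ± 0.803 and 8.15 ± 0.688 RPKM (log2 fold change 0.32, SE 0.13, adjusted p 0.169).

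Genes outside the HOX clusters that are known to differ between fat depots were examined as well. Tbx15, Shox2 and En1, which mark subcutaneous fat, had mean levels of 0.0210, 0.0634 and 0.0681 RPKM in control mice and were not tested. Efemp1 and Gpc4 were the most abundant of the list, at 57.8 to 61.9 RPKM and 35.2 to 45.2 RPKM in control mice, and both overlapped between genotypes. Of 18 genes tested 3 were higher and 1 lower at a nominal p under 0.05, not clearly more than the 11.9% and 13.7% of all genes. Gata6, a factor of visceral mesoderm, stood at 0.844, 1.18 and 0.664 RPKM in control and 1.78, 2.69 and 1.33 RPKM in aPU.1KO mice (log2 fold change 1.12, SE 0.31, adjusted p 0.101 in edgeR and 0.0127 in DESeq2). Irx3 stood at 2.40, 2.57 and 2.57 RPKM and 1.86, 1.57 and 2.14 RPKM (-0.43, SE 0.16, adjusted p 0.162). In none of the TALE, Polycomb, trithorax, retinoic acid and depot lists was a gene called at an adjusted p under 0.05 in edgeR, whereas DESeq2 called 7 (Rbbp4, Ring1, Kmt2d, Aldh1a2, Aldh1a3, Gata6 and Nrg4) of the 86 that edgeR tested, or 8.14%, no more than the 11.0% of all genes that DESeq2 called.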

How the data were processed

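RNA-seq of the epididymal adipocyte fraction was analysed in 3 control and 3 aPU.1KO mice. The authors deposited estimated counts per gene: reads were quantified with Salmon (option validateMappings) and summed to genes. GRCm38 and FastQC are named in the submitters' processing notes, and the Salmon version and annotation are not given in the sources used here. The deposited counts are whole numbers. Symbols, exon lengths and coordinates are from GENCODE M21, which matched 35102 of 35122 identifiers, and promoters are from RefSeq. The table was tested with edgeR 4.0.16 in R 4.3.3 (filterByExpr, TMM, glmQLFit, glmQLFTest, Benjamini-Hochberg adjustment over all genes tested), aPU.1KO over control. DESeq2 1.42.0, the tool of the study, and limma-voom (limma 3.58.1) were alternatives, beside other scaling, filters, dispersion, depth and leaving out each mouse. A library with 3 counts or fewer was taken as at the floor. The fit was also run on simulated counts, and the outcome is not given here. HOX genes are named in full when among the 3 highest of a cluster, at an unadjusted p under 0.05 or without overlap; of other lists, the 2 highest and those that meet both criteria, at most 4, and marker lists are given as sums. Members and lists were chosen with earlier results of these data known. No duplicate library was found. Mice are numbered in accession order, the paper gives an age above 1 year, and p-values set group differences against the spread between these mice. Non-coding RNAs of the clusters were not analysed here, and a few genes are left out of the text. Figures were drawn with matplotlib 3.10.9.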

Additional observations from a re-analysis of the deposited data

How the results depend on the processing

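No paired analysis was possible because each mouse has a number of its own and the labels name no litters. The controls were littermates by the methods of the study, so the groups may share litters, and the effect of that was not tested. Of 426 values of single HOX genes under 16 alternative fits, 402 kept their direction and their side of an adjusted p of 0.05, 3 passed it (Hoxa7 and Hoxc4 in DESeq2, and Hoxc4 without control mouse 2) and 21, of 10 genes, changed sign. Leaving out each mouse in turn, the log2 fold change ran from -0.20 to 0.43 for Hoxa3, -0.020 to 1.10 for Hoxa5, -0.53 to 0.26 for Hoxa10, -0.080 to 0.31 for Hoxb6, -0.43 to 0.31 for Hoxb8, -0.43 to 0.46 for Hoxb9, -0.75 to 0.042 for Hoxc10, -0.093 to 0.21 for Hoxd3 and -0.57 to 0.36 for Hoxd4. The sign turned without aPU.1KO mouse 2 for 8 of these 9 and without control mouse 1 for Hoxc10. It also turned for Hoxb6 without control mouse 2, for Hoxb9 without control mouse 3, and for Hoxd3 without control mouse 1, control mouse 2 or aPU.1KO mouse 3. Without scaling factors it was -0.011 for Hoxb6, -0.042 for Hoxb8, -0.070 for Hoxb9, -0.090 for Hoxc6 and -0.083 for Hoxd3. For Hoxb9 it was -0.11 in limma-voom and -0.0029 with control library 1 thinned. The cause was not tested.

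The count of HOX genes at an adjusted p under 0.05 was 2 in DESeq2 and 0 to 1 when a mouse was left out. The count at an unadjusted p under 0.05, 7 in the main test, was 2 without scaling factors and 2 to 5 when a mouse was left out, at its lowest without control mouse 1 or control mouse 3. The median log2 fold change of the tested genes was 0.12 without scaling factors and 0.17 to 0.31 when a mouse was left out, and relative to the median of all genes it was 0.24 with and 0.23 without scaling factors. The count of genes without overlap, 10 in the main values and all higher, was 3 per adipocyte marker sum (1 higher and 2 lower, beside 1.31% and 48.8% of all genes) and 8 without scaling factors (7 higher and 1 lower, beside 7.61% and 22.6%), both added after the data were seen. The number of expressed genes in control mice was 9 to 19 at thresholds of 2 and 0.5 RPKM, 17 with median transcript lengths (which add Hoxa3, Hoxb2, Hoxb3 and Hoxb8) and 13 without any one control mouse. With 3 mice per group an exact permutation test cannot give a p below 0.1.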
